A study of Homo sapiens with 4 samples.

Results

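The proteasome genes described here are the protein-coding genes of the deposited table whose symbols begin with PSMA to PSMG and a digit, together with ADRM1 and POMP. The interferon-inducible subunits PSMB8 and PSMB9 were left out by definition. The definition found 27 of the 6828 listed genes. Among RefSeq protein-coding genes 50 symbols meet it, so 23 of them, POMP included, are not listed in the table.

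The 26S proteasome degrades proteins that carry ubiquitin chains. Its 20S core is a barrel of alpha and beta rings with the proteolytic sites inside, and its 19S cap recognises, unfolds and feeds the substrate through a ring of ATPases. Dedicated chaperones assemble the core and the cap, and alternative activators can take the place of the cap.

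The cells were A549, an epithelial line from a human lung adenocarcinoma. They were infected with lentiviruses that carried either a control shRNA (shctrl) or an shRNA against the lncRNA USP2-AS1 (shUSP2-AS1), and polyadenylated RNA taken 72 h later was sequenced. Both groups are thus infected cells that express an shRNA, with 2 libraries per group, which the study's methods call biological replicates. The methods do not say which USP2-AS1 shRNA was used, and the series holds no second shRNA and no rescue. The column names of the table do not repeat the sample labels, so the columns named scr were taken as shctrl and the columns named sh216 as shUSP2-AS1.

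Values are read counts per gene divided by a size factor of the library, called normalised read counts here. The whole reads behind them summed to between 10772788 and 14120472 per library over the listed genes, which leaves out the reads on unlisted genes. All listed genes had an adjusted p of at most 0.0499 in the authors' own comparison, so each gene had already been chosen for differing between these 4 libraries. Being called is therefore no finding for any of the 27 genes, whereas their direction was not fixed by that choice. The targeted gene USP2-AS1 had normalised read counts of 23.2 and 24.2 in shctrl (24 and 22 reads) and of 2.10 and 6.16 in shUSP2-AS1 (2 and 7 reads). Its groups did not overlap, and its log2 fold change was -2.39 (SE 0.56, adjusted p = 0.000597, limma). Of 10 epithelial and A549 markers, 6 were listed. KRT8, KRT7 and KRT18 were lower, and KRT19, CLDN1 and AKR1B10 were higher. Their summed values were 237340 and 225350 in shctrl and 176810 and 180970 in shUSP2-AS1, sums that weigh KRT8 and KRT7 most. The fibroblast markers THY1, COL1A1 and LUM, 3 of 7 in their list, were higher, as were 50.6% of all genes tested. Their summed values were 439 and 482 against 1017 and 1165. None of 7 leukocyte and endothelial markers was listed. The part of these markers in the results was not tested.

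All 27 listed proteasome genes were lower in USP2-AS1 knockdown cells. They came from both rings of the core, the ATPase and non-ATPase parts of the cap, the activators and the assembly chaperones. The 23 genes that are not listed have no values here, so their direction is unknown. Since every listed gene had an adjusted p of at most 0.0499 in the authors' comparison, the unlisted genes may not have differed. Most changes were small, with a median log2 fold change of -0.45, and PSMA4 and PSME4 changed least. By limma on log2(value + 1), with p adjusted over all 6812 genes tested, 27 were lower and 0 were higher at an adjusted p below 0.05. No proteasome gene was higher at an unadjusted p below 0.05, nor by edgeR or DESeq2 on the recovered reads. Among all genes tested, 49.4% were lower and 50.6% were higher by the same criterion. The median over all genes tested was 0.19. Over the 6362 protein-coding genes tested it was 0.16, with 49.6% lower, a comparison added after the data were seen. As each listed gene was chosen for differing, neither median is a typical change of a gene. The lower quartile was -0.67 over all genes tested and -0.53 over the proteasome genes. PSMD8 lay at the proteasome median, and 37.5% of all genes tested had a log2 fold change at or below that of PSMD8. Most of the lower genes therefore fell more than PSMD8 did. When only the 6570 genes with at least 10 in every library were tested, the median over all of them turned to -0.15, with 50.1% below 0, while that of the proteasome genes was still -0.45. When the log2 fold change also had to reach 1 in either direction, 2 proteasome genes were lower and 0 were higher, where the shares over all genes tested were 13.5% and 16.1%. The 2 genes were PSMG1 and PSMC3IP. Leaving out PSMC3IP and PSME3IP1, which carry the prefix without being subunits, left the median of the other 25 genes at -0.45 and 1 gene past a log2 fold change of 1. Bulk RNA-seq cannot tell less RNA per cell from fewer cells of a kind.

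**Figure D1:**
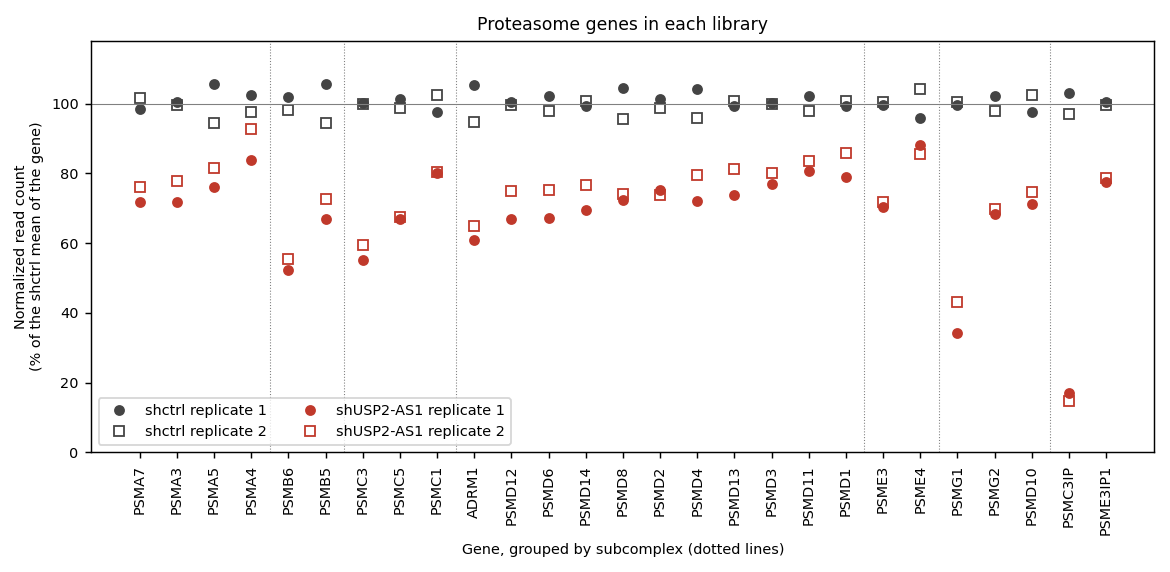
Normalised read count of each of the 27 proteasome genes in each library, as percent of the gene's mean in the 2 shctrl libraries; black marks are shctrl, red marks are shUSP2-AS1, circles are replicate 1 and squares replicate 2, and dotted lines part the subcomplexes. Both red marks lie below both black marks for all 27 genes, lowest for PSMC3IP, PSMG1, PSMB6 and PSMC3.

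For every one of the 27 genes, both shUSP2-AS1 libraries lay below both shctrl libraries, as the plot of the genes by library shows. Over all genes tested, 49.3% were separated in this way with shUSP2-AS1 below and 50.6% with shUSP2-AS1 above. Nearly every gene tested was thus separated in either direction, so a lack of overlap is no finding for a gene of this table. Replicates of a proteasome gene differed by a median of 0.06 on the log2 scale, and at most by 0.16 in shctrl and 0.33 in shUSP2-AS1, the latter for PSMG1. In shUSP2-AS1, replicate 1 lay below replicate 2 in 24 of the 27 genes. The median difference of replicate 1 minus replicate 2 was -0.08 for the proteasome genes and -0.01 for all genes tested.

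The beta ring holds the proteolytic sites, and 2 of its 9 genes in the list used here were listed, both for catalytic subunits of the constitutive core. PSMB6, the subunit with caspase-like activity (chr17:4796144-4798502, plus strand, hg38), had normalised read counts of 3127 and 3010.1 in shctrl and 1608 and 1701 in shUSP2-AS1. The groups lay far apart compared with the replicates, and the level in knockdown cells was 53.9% of control. Its log2 fold change was -0.89 (SE 0.06, 95% interval -1.01 to -0.77, adjusted p = 1.23e-10, limma). PSMB5, the subunit with chymotrypsin-like activity that proteasome inhibitors such as bortezomib bind (chr14:23016543-23035230, minus strand), had 3639 and 3257 against 2304 and 2507. Here too the groups did not overlap, although the shctrl replicates differed more than for PSMB6. The level fell to 69.8% of control, with a log2 fold change of -0.52 (SE 0.06, 95% interval -0.65 to -0.39, adjusted p = 4.71e-07, limma). The intervals of these catalytic subunits did not overlap, but the difference between them was not tested. PSMB7, the catalytic subunit with trypsin-like activity, and the immunoproteasome subunit PSMB10 are not listed in the table.

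The alpha ring gates the entry to the core, and 4 of its 8 genes were listed, all lower. The median log2 fold change of these 4 was -0.38. PSMA7 (chr20:62136733-62143440, minus strand) had normalised read counts of 5318 and 5485 in shctrl and 3883 and 4116 in shUSP2-AS1, with a log2 fold change of -0.43 (SE 0.05, adjusted p = 3.99e-07, limma). PSMA3 (chr14:58244843-58272012, plus strand) had 1623 and 1610.0 against 1159 and 1259.9, with a log2 fold change of -0.42 (SE 0.06, adjusted p = 7.52e-06, limma). For both genes the groups were well apart. PSMA5 lay at 78.8% of control. PSMA4 (chr15:78540405-78552417, plus strand) had 3678 and 3497 against 3008 and 3321, which is 88.2% of control and the smallest change of the 27 genes. Its log2 fold change was -0.18 (SE 0.06, 95% interval -0.30 to -0.06, adjusted p = 0.00542, limma). The lower shctrl library and the higher shUSP2-AS1 library of PSMA4 were close, and without shUSP2-AS1 replicate 1 its log2 fold change was -0.11 with an adjusted p of 0.114 (limma).

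**Figure D2:**
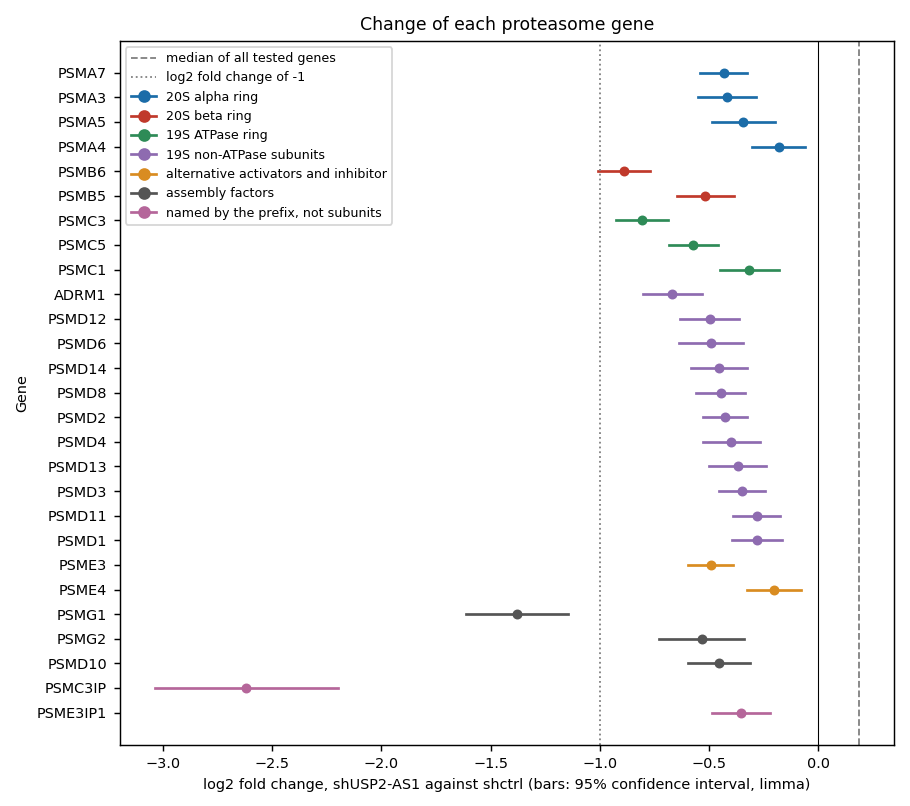
Log2 fold change of each of the 27 proteasome genes in shUSP2-AS1 against shctrl, with the 95% confidence interval from limma as a bar and the subcomplex as the colour; the dashed line is the median of all genes tested and the dotted line a log2 fold change of -1. All intervals lie below 0, from PSMA4 at -0.18 to PSMC3IP at -2.62. The median of all genes tested is 0.19 and their lower quartile -0.67.

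The ATPase ring of the 19S cap unfolds substrates, and 3 of its 6 genes were listed. PSMC3 (chr11:47418769-47426473, minus strand) had normalised read counts of 2941 and 2928 in shctrl and 1614 and 1742 in shUSP2-AS1. The shctrl replicates were nearly equal, and the knockdown level was 57.2% of control, with a log2 fold change of -0.81 (SE 0.06, 95% interval -0.93 to -0.69, adjusted p = 5.46e-10, limma). PSMC5 (chr17:63827152-63832026, plus strand) had 3243 and 3153 against 2139 and 2161, with a log2 fold change of -0.57 (SE 0.05, adjusted p = 1.75e-08, limma). PSMC1 (chr14:90256527-90275429, plus strand) had 1305 and 1372 against 1073 and 1078, with a log2 fold change of -0.32 (SE 0.06, adjusted p = 0.000154, limma). These 3 listed genes were lower by unequal amounts, and PSMC2, PSMC4 and PSMC6 are not listed in the table. PSMC1 has 13 named pseudogenes in the annotation, so reads that match several copies make its count uncertain.

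Of the 12 non-ATPase genes of the cap in the list used here, 11 were listed and all were lower. Their median log2 fold change was -0.43, with a range from -0.67 to -0.28. ADRM1, a ubiquitin receptor of the cap (chr20:62302093-62308862, plus strand), had normalised read counts of 2351 and 2118 in shctrl and 1358 and 1450.1 in shUSP2-AS1. It showed the largest change of this group, at 62.8% of control and a log2 fold change of -0.67 (SE 0.06, 95% interval -0.80 to -0.53, adjusted p = 2.96e-08, limma). PSMD4, another ubiquitin receptor of the cap, lay at 75.9% of control. PSMD14, the deubiquitinase that removes ubiquitin chains from substrates as they are engaged, lay at 73.1%. PSMD12, a scaffold subunit of the lid (chr17:67337916-67366605, minus strand), had 1820.4 and 1804.5 against 1214 and 1356, with a log2 fold change of -0.50 (SE 0.06, adjusted p = 1.29e-06, limma). The other lid subunits PSMD3, PSMD6, PSMD8, PSMD11 and PSMD13 lay between 71.2% and 82.2% of control. PSMD2 and PSMD1, the large scaffold subunits of the base, lay at 74.5% and 82.4%. PSMD1 (chr2:231056864-231172827, plus strand) changed least, with 3790 and 3846 in shctrl and 3016 and 3279 in shUSP2-AS1, and a log2 fold change of -0.28 (SE 0.05, adjusted p = 0.000105, limma). The groups still did not overlap. PSMD7 was the only gene of this group not listed in the table.

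The assembly factors held the largest change of any proteasome component. PSMG1, a chaperone of alpha ring assembly (chr21:39174769-39183488, minus strand), had normalised read counts of 612 and 615 in shctrl and 209 and 264 in shUSP2-AS1. The groups were far apart, although the shUSP2-AS1 replicates differed more than those of any other proteasome gene. PSMG1 lay at 38.6% of control, 2.59-fold lower, with a log2 fold change of -1.38 (SE 0.11, 95% interval -1.61 to -1.15, adjusted p = 3e-09, limma). PSMG2, its partner in the same chaperone dimer (chr18:12658043-12725740, plus strand), had 513 and 491 against 343 and 350.4, with a log2 fold change of -0.53 (SE 0.09, 95% interval -0.73 to -0.34, adjusted p = 3.37e-05, limma). The intervals of the dimer's partners did not overlap, and the difference between them was not tested. PSMD10, a chaperone of the ATPase ring also known as gankyrin (chrX:108084207-108091549, minus strand), had 1198 and 1258 against 875 and 916, with a log2 fold change of -0.46 (SE 0.07, adjusted p = 5.69e-06, limma). The other 5 assembly factors of the list, POMP, PSMG3, PSMG4, PSMD5 and PSMD9, are not listed in the table.

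Among the alternative activators, PSME3, the nuclear activator PA28 gamma (chr17:42824385-42843760, plus strand), had 5386 and 5442 in shctrl and 3809 and 3881 in shUSP2-AS1. The replicates of each group were close, and the log2 fold change was -0.49 (SE 0.05, adjusted p = 4.32e-08, limma), which is 71.0% of control. PSME4, the activator PA200 (chr2:53864069-53970993, minus strand), had 2178 and 2370.5 against 2003 and 1946, with a log2 fold change of -0.20 (SE 0.06, adjusted p = 0.00303, limma). Without shctrl replicate 2, the PSME4 log2 fold change was -0.14 and its adjusted p 0.0534 (limma). The remaining activators PSME1 and PSME2 and the inhibitor PSMF1 are not listed in the table.

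The largest change among the 27 genes belonged to a gene that is named for binding a subunit. PSMC3IP, a cofactor of homologous recombination (chr17:42572310-42577831, minus strand), had normalised read counts of 197 and 186 in shctrl and 32.6 and 28.2 in shUSP2-AS1. It was 6.30-fold lower, with a log2 fold change of -2.62 (SE 0.20, 95% interval -3.04 to -2.20, adjusted p = 1.36e-09, limma), and 0.851% of all genes tested had a log2 fold change at or below it. PSME3IP1, which binds PSME3 (chr16:57152466-57186116, minus strand), had 1299 and 1288 against 1003 and 1019, with a log2 fold change of -0.36 (SE 0.06, adjusted p = 4.69e-05, limma). Both genes were lower, like the subunits, but by very unequal amounts.

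Summed within a subcomplex, the transcripts of the listed beta ring genes lay at 62.3% of control, those of the ATPase ring at 65.6%, those of the assembly factors at 63.1%, those of the non-ATPase subunits at 75.6%, those of the activators at 75.7% and those of the alpha ring at 78.9%. These sums weigh abundant genes most and cover only the listed genes, each of which had been chosen for differing. Listing was uneven, with 2 of 9 beta ring genes and 11 of 12 non-ATPase genes of the lists used here, so the order of the sums may depend on it. The subcomplexes were not tested against each other.

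**Figure D3:**
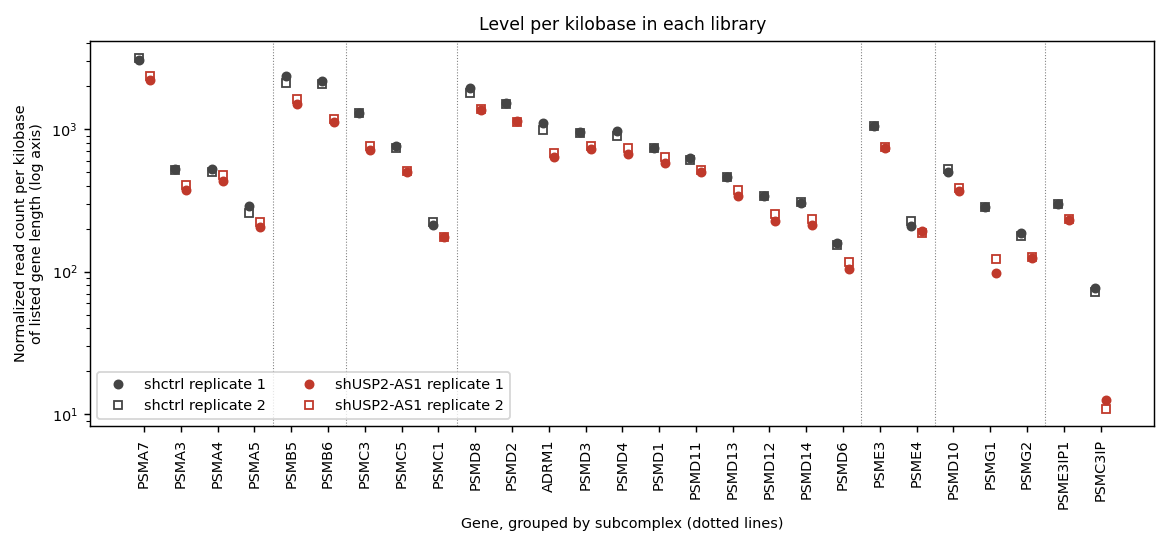
Normalised read count per kilobase of listed gene length, on a log axis, for each of the 27 proteasome genes in each library; black marks are shctrl, red marks are shUSP2-AS1, circles are replicate 1 and squares replicate 2, and dotted lines part the subcomplexes. PSMA7 is highest at a mean of 3083 in shctrl and PSMC3IP lowest at 74.3, and the red marks lie below the black marks for every gene.

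Levels were compared between genes only after division by the gene length given in the table. By mean normalised read count per kilobase in shctrl, PSMA7 was highest at 3083, followed by PSMB5 at 2226, PSMB6 at 2121, PSMD8 at 1864 and PSMD2 at 1509. PSMB5 and PSMB6 overlapped in shctrl, whereas in shUSP2-AS1 PSMB5, at 1553, lay above PSMB6, at 1143. The lowest subunits were PSMD6 at 156 and PSMC1 at 218, and the assembly factors PSMG1 and PSMG2 stood at 285 and 182. In shUSP2-AS1, PSMG1 stood at 110.0 and PSMG2 at 126, so the order of their means was reversed. Subunits of the same ring differed widely in level by this measure, which depends on the gene length used and on mapping.

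Strand may bear on some of these counts. In GENCODE release 44, 12 of the 27 genes overlap a gene of the other strand. Overlap was taken over whole gene spans, introns included, so shared exons were not looked for. The strand setting of the counting is not given in the sources used here. Reads from stretches that such a pair shares may therefore not have been told apart. The pairs include PSMA3 with the lncRNA PSMA3-AS1, PSMD6 with PSMD6-AS1, and PSME3 with BECN1. PSMA3-AS1 is itself listed (chr14:58265365-58298134, minus strand), with 352 and 360.5 in shctrl and 475 and 478 in shUSP2-AS1, and a log2 fold change of 0.42 (SE 0.09, adjusted p = 0.000331, limma). It was therefore higher where PSMA3 was lower. PSMG3-AS1 (chr7:1570073-1589626, plus strand), whose partner PSMG3 is not listed, had 205 and 182 against 315 and 312, a log2 fold change of 0.69 (SE 0.12, adjusted p = 2.76e-05, limma). In addition, 8 of the 27 genes have named pseudogenes.

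Proteasome genes are known to be transcribed together, and their promoters were searched for elements recognised by factors known to act on them. RefSeq promoters (GRCh38.p14, 250 bases before to 50 bases after the start site, 300 bases in all) matched 24 of the 27 genes. Those of PSMA7, PSMB6 and PSMD4 were not searched. CCAAT, the element of NF-Y, was searched on both strands and was present in 15 of the 24 promoters, or 62.5%. The 15 include PSMC3IP and PSME3IP1, which are not subunits. Among all 15843 promoters 36.4% held CCAAT. Of the promoters of the 2604 lower genes with a promoter 40.0% did, and of those of the 2522 higher genes 33.1%. The 4 windows of 70 bases that follow belong to the genes with the largest changes whose window lies wholly before the start site, with CCAAT in capitals and the strand that of the gene, which is minus for all 4. They lie at chr17:42578003-42578072 (PSMC3IP, element 211 bases before the start site), chr21:39183632-39183701 (PSMG1, 235 bases), chr11:47426514-47426583 (PSMC3, 114 bases) and chr14:23035345-23035414 (PSMB5, 164 bases).
PSMC3IP: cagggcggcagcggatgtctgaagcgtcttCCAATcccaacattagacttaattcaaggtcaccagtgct
PSMG1: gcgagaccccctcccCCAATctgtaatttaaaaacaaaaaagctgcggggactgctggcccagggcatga
PSMC3: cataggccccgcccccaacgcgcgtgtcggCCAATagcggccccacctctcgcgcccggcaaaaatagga
PSMB5: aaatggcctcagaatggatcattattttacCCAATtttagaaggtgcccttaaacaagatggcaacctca

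TGACNNNGC, the core of the antioxidant response element to which NRF1 and small MAF proteins bind, was searched on both strands in the same promoters. It was present in 7 of the 24 (ADRM1, PSMD1, PSMD12, PSMD3, PSME4, PSMG1 and PSMG2), or 29.2%, against 14.3% of all promoters, 15.9% of those of the lower genes and 15.4% of those of the higher genes. The genes with the element ranged from PSMG1, with a log2 fold change of -1.38, to PSME4, with -0.20. Windows of 70 bases are shown for the 3 genes with the largest changes whose window lies wholly before the RefSeq start site, with the element in capitals. The genes are PSMG1 (chr21:39183595-39183664, minus strand, 183 bases before the start site), ADRM1 (chr20:62302729-62302798, plus strand, 137 bases) and PSMD12 (chr17:67366703-67366772, minus strand, 165 bases). The ADRM1 window lies inside the gene span given above, which begins before the RefSeq start site.
PSMG1: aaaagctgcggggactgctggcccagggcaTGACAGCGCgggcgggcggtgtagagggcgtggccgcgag
ADRM1: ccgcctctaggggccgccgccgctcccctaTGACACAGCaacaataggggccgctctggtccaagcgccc
PSMD12: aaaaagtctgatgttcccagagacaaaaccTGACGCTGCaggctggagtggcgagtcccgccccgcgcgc

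The promoters of PSMG1, ADRM1 and PSMD3 held both elements, and the windows shown for PSMG1 overlap. The E2F-type elements TTTCCCGC and TTTGGCGC were in 0 of the 24 promoters, against 3.06% of all promoters, 5.61% of those of the lower genes and 2.06% of those of the higher genes. At such shares few matches would be expected among 24 promoters. Only these exact sequences were searched, so other forms of an E2F site may be present. These matches describe letters in a window and were not tested.

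Of 18 symbols in the list of regulators of proteasome genes, 7 were tested, 4 lower and 3 higher, which is near the 49.4% and 50.6% of all genes tested. NFYA and NFYC, subunits of the CCAAT-binding factor NF-Y, were both lower. NFYA had normalised read counts of 540.1 and 636 in shctrl and 259 and 298 in shUSP2-AS1, and a log2 fold change of -1.08 (SE 0.11, adjusted p = 4.66e-08, limma). NFYC had 644 and 701 against 373 and 383, a log2 fold change of -0.83 (SE 0.09, adjusted p = 1.02e-07, limma). The transcription factor STAT3 was higher, with 5252 and 5499 against 7986 and 7803 and a log2 fold change of 0.55 (SE 0.05, adjusted p = 1e-08, limma). NFE2L1, which encodes NRF1, is not listed in the table. Of the small MAF genes, MAFF was lower and MAFK higher, with log2 fold changes of -1.19 and 0.41. NGLY1, the deglycosylase that processes NRF1, was lower at -0.44, and BTRC, a ubiquitin ligase subunit, was higher at 0.52.

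Of 17 symbols for enzymes and cofactors that bind the proteasome, 6 were tested and all 6 were lower, where 49.4% of all genes tested were lower. UBE3C, a ubiquitin ligase of the proteasome, had normalised read counts of 3718 and 3639.8 in shctrl and 1727 and 1651 in shUSP2-AS1, and a log2 fold change of -1.12 (SE 0.05, adjusted p = 3.4e-12, limma). UCHL5, the deubiquitinase that docks on ADRM1, had 874 and 793 against 329 and 348, a log2 fold change of -1.30 (SE 0.09, adjusted p = 2.96e-10, limma). UBE3A, a ligase, had 1109 and 1063 against 636 and 594, a log2 fold change of -0.82 (SE 0.07, adjusted p = 1.23e-08, limma). The deubiquitinase USP14 was lower as well, with a log2 fold change of -0.70. Both the receptor ADRM1 and its deubiquitinase were thus lower, UCHL5 with the larger log2 fold change.

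Other steps of the ubiquitin system had genes in both directions, as did the table as a whole, with 49.4% lower and 50.6% higher. Of the receptors that shuttle ubiquitinated substrates, 6 of 10 were tested, 5 lower and 1 higher. UBQLN4 had normalised read counts of 1937 and 1846 in shctrl and 942 and 906 in shUSP2-AS1, with a log2 fold change of -1.03. UBQLN1 had 3913 and 4002 against 2774 and 2919, with a log2 fold change of -0.48. TOLLIP, the gene of this list that was higher, had 1333 and 1248 against 1787 and 1837, with a log2 fold change of 0.49. Of the p97 unfoldase and its cofactors 9 of 16 symbols were tested, 6 lower and 3 higher. UBXN6 had 1068 and 949.5 against 1603 and 1537, with a log2 fold change of 0.64. UBXN4 had 1806 and 1861 against 2445 and 2514, with a log2 fold change of 0.44. FAF2 had 1938 and 2029 against 1526 and 1429, with a log2 fold change of -0.43. All 3 are p97 cofactors, and their groups did not overlap. Of the E2 conjugating enzymes 16 of 29 were tested, 9 lower and 7 higher. UBE2S and UBE2C serve the anaphase-promoting complex, and UBE2T serves the Fanconi anaemia pathway. UBE2S had 6946 and 6121 against 1652 and 1665, with a log2 fold change of -1.97. UBE2C had 1264 and 1266 against 170.4 and 194, with a log2 fold change of -2.79. UBE2T had 773 and 701 against 185 and 209, with a log2 fold change of -1.90. These 3 were far below control in both shUSP2-AS1 libraries. The genes named in this paragraph were at an adjusted p below 0.05 by limma. No gene of these lists or of the marker lists changed direction under another scaling, and UBE2D3 and UBE2E3 were no longer called by DESeq2 with its own size factors.

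**Figure D4:**
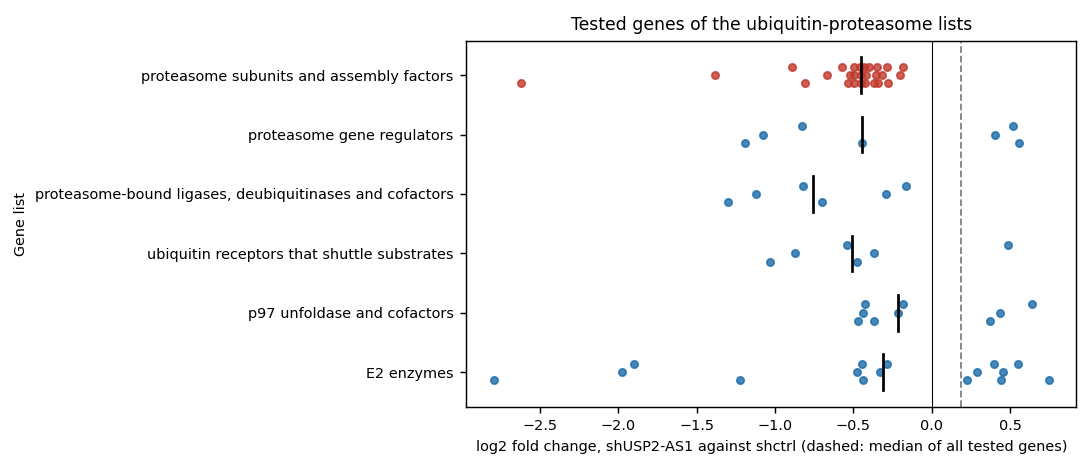
Log2 fold change of the tested genes of each list in shUSP2-AS1 against shctrl, with 1 point per gene, the list's median as a black bar and the median of all genes tested as a dashed line; the red points are the 27 proteasome genes. The proteasome genes and the 6 proteasome-bound enzymes and cofactors all lie below 0, whereas each of the other 4 lists has genes on both sides.

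The direction was the same under every setting tried. Under the main setting and 14 alternatives, all 27 proteasome genes had a log2 fold change below 0, as the plot of the settings shows. The share of all genes tested below 0 was stable too, between 49.1% and 50.1%. All settings drew on the same 4 libraries and on genes already chosen for differing. The size moved with the scaling. The alternative scalings were computed on the listed genes only, each of which had been chosen for differing. RLE scaling of the recovered reads shifted the median of all genes tested to 0.07 and the proteasome median to -0.57, and upper quartile scaling shifted them to 0.25 and -0.39. Under RLE scaling PSMB6 reached a log2 fold change of -1.01.

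**Figure D5:**
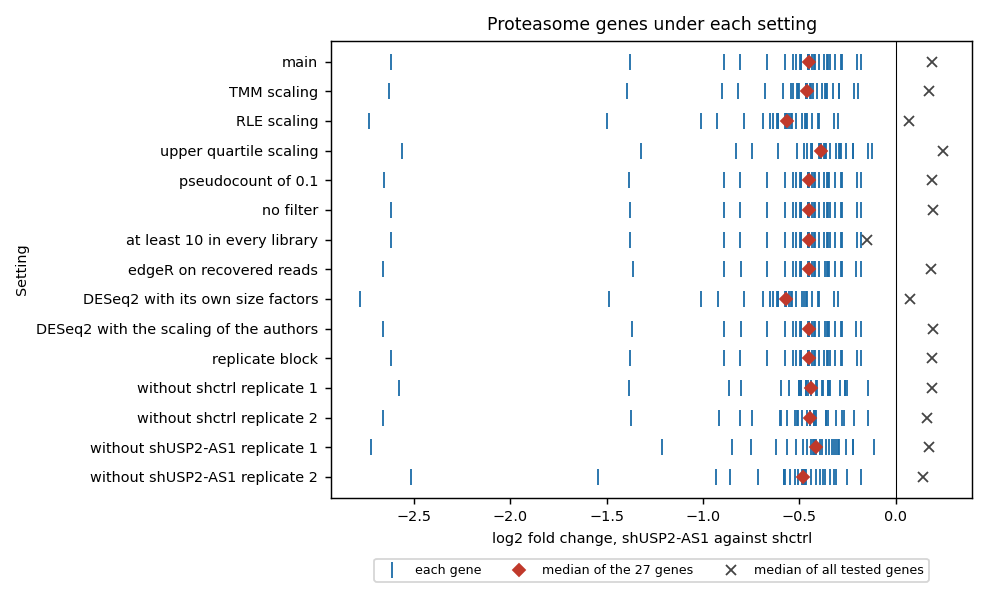
Log2 fold change of each of the 27 proteasome genes (blue ticks), their median (red diamond) and the median of all genes tested (cross) under the main setting and 14 alternatives. Every tick lies below 0 in all 15 settings, and the proteasome median ranges from -0.57 to -0.39.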

How the data were processed

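Poly(A) libraries of A549 cells were made with a TruSeq kit, and per the study's methods Novogene sequenced them and raw counts were compared with DESeq2. The submitters' processing notes name HISAT2 (2.0.5), featureCounts (1.5.0-p3), DESeq2 (1.20.0) and hg38. The annotation release and the strand setting are not given in the sources used here. The authors deposited 1 table with a normalised signal per gene and library (read counts over the library's size factor), the mean of each group, the gene length, and the results of their own comparison, namely a log2 fold change with its raw and adjusted p-values. The group means and the comparison were not used, apart from the largest adjusted p. The table holds 0 columns of other samples.

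Columns were assigned to groups by their prefix: scr was read as the scramble control, a term the study uses in the heading of its plot of this comparison, and sh216 is the other arm. Replicates took the number in the column name. All values (100% in each library) were whole reads within 0.01 once divided by what 1 read is worth in that library (0.966 and 1.10 in shctrl, 1.05 and 0.880 in shUSP2-AS1). Between replicates, chi-square per degree of freedom was 3.78 for shctrl and 3.85 for shUSP2-AS1, above counting noise. Genes with a mean of at least 10 were fitted with limma (3.58.1, R 4.3.3; lmFit and eBayes with a trend) on log2(value + 1), which left out 16 genes and tested 6812, and which understates the change of low genes. P-values were adjusted by the Benjamini-Hochberg method over all genes tested, and a gene was called higher or lower at an adjusted p below 0.05, with a log2 fold change of at least 1 as a second criterion. Because the table was chosen on the same comparison, these p-values are not independent evidence of a change. Alternatives were edgeR (4.0.16) and DESeq2 (1.42.0) on the recovered reads, other scalings, filters and pseudocount, the replicate number as a block, and each library left out. The scripts were tested on simulated data.

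The members, gene lists and tests were chosen with earlier results of these data known. Values per library are given for the catalytic and inducible beta subunits, for the 2 largest changes and the smallest in each subcomplex and for genes with a log2 fold change of at least 1, and for the 3 genes of lowest p in each other list reported. A further list of the ubiquitin system is not reported here. Lists hold some older symbols beside the current ones. Promoters come from RefSeq (GRCh38.p14) and overlaps from GENCODE release 44.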

Additional observations from a re-analysis of the deposited data

How the results depend on the processing

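Across the main setting and 14 alternatives, 0 proteasome genes were higher, and 27 were lower at an adjusted p below 0.05 in every setting except without shctrl replicate 2 and without shUSP2-AS1 replicate 1, so that leaving out a library gave 26 to 27. The median log2 fold change of the 27 genes, -0.448 in the main setting, was -0.566 with RLE scaling, -0.567 with DESeq2 and its own size factors, -0.388 with upper quartile scaling and between -0.48 and -0.412 with a library left out. The median of all genes tested, 0.187 in the main setting, moved with the same scalings to 0.0668, 0.0755 and 0.247, and turned to -0.147 with at least 10 in every library, a filter that left the median of the proteasome genes at -0.448. The genes lower with a log2 fold change of at least 1 numbered 1 without PSMC3IP and PSME3IP1, and 3 with RLE scaling and with DESeq2 and its own size factors. With the replicate block, 27 genes were lower, 2 with a log2 fold change of at least 1, and the median was -0.448. Replicate differences correlated at -0.0397 across genes tested, so no large shift was shared by replicate number. This cannot show whether the libraries were prepared in pairs. The block changed no call of a proteasome gene, in a table where nearly every gene is called. A left-out library leaves 1 sample in its group, which is assumed to vary like the other group. Depth limits USP2-AS1, with 2 to 24 reads, far more than the proteasome genes.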
